A study of Mus musculus with 28 samples.

Results

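The effect of the direction of a reciprocal cross on N6-methyladenosine (m6A) was examined in mouse cerebellum, by comparing the m6A peaks called in 3 libraries of one cross with those called in 3 libraries of the opposite cross. All animals were F1 hybrids between 2 inbred strains, C57BL/6J, called C57 here, and PWK/PhJ, called PWK. In F1i the dam was PWK and the sire C57, and in F1r the dam was C57 and the sire PWK. Each cross was represented by a newborn (P0) male, a 7-day-old (P7) male and a P7 female library, which formed 3 pairs matched for age and sex, and no treatment or engineered allele is given for any of them. Animals of both crosses were heterozygous for the same autosomal differences between the strains, so that the crosses differed in which parent supplied which autosomal copy. The series holds 14 immunoprecipitated (IP) libraries with a peak list, of which these 6 are all that came from cerebellum and 8 came from cerebrum. Merging the same-strand peaks of the 6 lists wherever they shared at least 1 bp gave 23365 regions, against 33937 for all 14 lists. Of these, 22720 were autosomal. A region was taken as cross-exclusive when it was called in all 3 libraries of one cross and in 0 libraries of the other, and 80 autosomal regions met this rule.

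m6A is placed on nascent RNA by a methyltransferase complex built around METTL3 and METTL14, at adenosines in the sequence context called DRACH, and it is densest near stop codons and in 3′UTRs. It is bound by reader proteins of the YTH family that affect the decay, splicing and translation of the transcript. In a reciprocal cross, autosomal genes that are transcribed from both copies yield the same mixture of strain sequences in both directions, whereas imprinted genes are transcribed from the copy of one parent. A gene transcribed from the paternal copy therefore yields C57 RNA in F1i and PWK RNA in F1r, and a gene transcribed from the maternal copy yields the reverse. A peak in such a list requires both the transcript and the mark, and the lists alone do not separate them. In whole tissue, fewer cells of a type and less methylated RNA per cell cannot be told apart.

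The sequence around a DRACH motif is shown for the regions on which the comparison turns, which are the 7 cross-exclusive regions in imprinted domains, the F1r regions with the strongest single peaks and the F1i region that was called in the opposite cross in cerebrum. They were read from the C57 reference (GRCm38, the mm10 build) on the strand of the transcript, 5′ to 3′, with the motif in capitals, and PWK sequence may differ. The first 5 were called in F1i only and the next 5 in F1r only.
A230057D06Rik, chr7:61753505-61753533, minus strand: aacaatatgaacGAACCagtacccccaga
Rasgrf1, chr9:89914846-89914874, plus strand: atccaaataccaGGACAgtgctaggcaac
Ppp1r9a, chr6:5161125-5161153, plus strand: ttgctttcggatGGACTgatttcagagta
no annotated gene, Gnas domain, chr2:174326991-174327019, minus strand: ttggccacgctaGGACAtggtagagagca
Rab36, chr10:75053358-75053386, plus strand: cctatctctggaGGACTtgggacacgcag
A230057D06Rik, chr7:61913952-61913980, minus strand: gaaacactaaaaGGACAgaatgagagggg
Trappc9, chr15:72800794-72800822, minus strand: gcttcactctggGGACAatatcaagctca
Airn, chr17:12819588-12819616, plus strand: ccagtgacttggGGACTggatagactgag
Gm42047, chr8:121836920-121836948, plus strand: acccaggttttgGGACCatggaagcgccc
Gm42047, chr8:121838962-121838990, plus strand: gtagggctgtatGGACAatcgctgaggta
The motif taken was the one nearest to the strongest summit inside the region, of the form GGAC where the region had such a motif and otherwise of any DRACH form. It began with GGAC in all of these but the F1i region of A230057D06Rik, where it was GAACC. It was not always close to the summit. Its A lay 79 nt from the summit in the F1r region of A230057D06Rik and 35 nt from it in the first Gm42047 region shown. It lay 31 nt from the summit in Airn and in the region of the Gnas domain, and 24 nt from it in Trappc9.

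The lists held 16687 and 18022 peaks in the P0 male F1i and F1r libraries, 18997 and 17601 in the P7 male libraries, and 17250 and 16965 in the P7 female libraries. Relative depth, recovered from the background of each list and set to a mean of 1 over the 6 libraries, ran from 0.625 in the P7 female F1r library to 1.247 in the P7 male F1i library, and absolute depth is unknown. En1, En2 and Pax2, which mark midbrain and hindbrain, carried regions in all 6 libraries, and the cerebrum gene Emx1 carried 0. Xist carried 4 regions in both female libraries and 0 in the male ones, while the Y-linked Kdm5d carried regions in 2 of the 4 male libraries (the P0 F1i and the P7 F1r library).
One library stood apart. The P7 female F1i library called 404 (36.7%) of the 1101 regions that were called in both P0 libraries and in 0 P7 male libraries, against 149 (13.5%) in the P7 female F1r library. It called 346 (26.9%) of the 1284 regions that were called in both P7 male libraries and in 0 P0 libraries, against 604 (47.0%) in its F1r partner. Of the 18 regions in 6 granule cell markers, it called 7, as did the P0 F1i library, while the P0 F1r library called 8, the P7 male libraries 18 and 17, and the P7 female F1r library 12. The part of this difference in the comparisons between crosses was not tested.

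The crosses rarely separated the 6 libraries. Of the 22720 autosomal regions, 44 (0.194%) were called in all 3 F1i and 0 F1r libraries, and 36 (0.158%) in all 3 F1r and 0 F1i libraries, whereas 10492 (46.2%) were called in all 6. No test was applied to single regions, because Fisher's exact test of 3 against 3 libraries cannot fall below p = 0.1. Just outside the rule lay 346 regions called in 2 F1i and 0 F1r libraries, 315 in 3 F1i and 1 F1r, 316 in 0 F1i and 2 F1r, and 357 in 1 F1i and 3 F1r libraries. Within single pairs, by contrast, 23.8% (P0 male), 21.0% (P7 male) and 29.5% (P7 female) of the autosomal regions called in either library were called in one cross and not in the other, so most differences seen in one pair did not recur in the others.

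**Figure D1:**
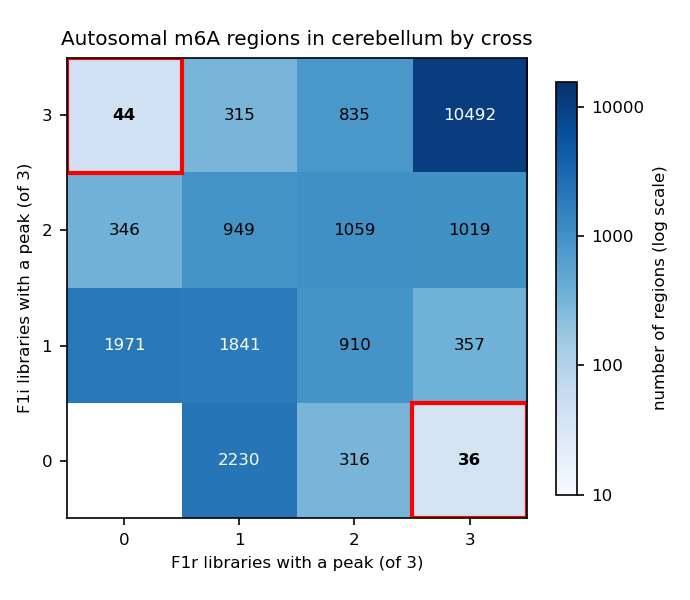
Number of autosomal m6A regions by the number of F1i libraries (vertical axis, 0 to 3) and F1r libraries (horizontal axis, 0 to 3) in which they were called, with colour on a log scale. The outlined corners hold the 44 regions called in all 3 F1i libraries only and the 36 called in all 3 F1r libraries only, against 10492 regions called in all 6 libraries.

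Cross-exclusive regions rested on weak peaks. When the peaks of each list were ranked by −log10 q, the mean percentile of a member in the 3 lists that held it had a median of 16.9 in F1i and 16.1 in F1r, and 1 of the 80 members, in the non-coding gene A230057D06Rik, lay above the 50th percentile of all 3 of its lists. The median was 21.7 over the autosomal regions called in exactly 3 libraries and 34.0 over all autosomal regions. The mean fold enrichment, which compares the IP pileup at a summit with its local background, ran from 3.88 to 9.96 in the F1i members and from 2.14 to 19.6 in the F1r members. Among the 44 F1i members, 27 had a peak of the opposite cross within 1000 nt on the same strand, and 19 lay in a gene that carried another region in all 6 libraries. Among the 36 F1r members, 10 had such a peak, and 17 lay in a gene with another region in all 6. The median distance to the nearest peak of the opposite cross, over all members of a direction, was 624 nt for the F1i and 12210 nt for the F1r members. A member was thus often a further weak peak in a transcript that was called in both crosses. The matching shares over all autosomal regions were not computed, so these counts describe the members and do not set them apart.

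Imprinted domains held 7 of the 80 members (8.75%), against 150 (0.66%) of all autosomal regions. The 23 domains listed span known imprinted genes, and 20 of them held a region. Of the 7 members, 4 were called in F1i and 3 in F1r, and 4 lay in genes of the list itself. The list was drawn up with earlier results of these data known, and the shares are given as a description.

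The Snrpn-Ube3a domain on chromosome 7, the region of Prader-Willi and Angelman syndromes, carried a member of each direction in introns of the same long non-coding gene, A230057D06Rik (ENSMUSG00000109394). The F1r member (chr7:61913892-61914191, minus strand) had fold enrichments of 10.7 in the P0 male, 9.53 in the P7 male and 12.6 in the P7 female F1r library, at percentiles 56.3, 61.4 and 57.1 of their lists. The nearest F1i peak lay 13585 nt away. The F1i member (chr7:61753451-61753771, minus strand) had fold enrichments of 7.45, 6.56 and 8.03 in the F1i libraries in the same order, and the nearest F1r peak lay 248 nt away, in a neighbouring intronic region (chr7:61752908-61753260) that was called in 3 F1i and 2 F1r libraries. Ube3a, a ubiquitin ligase expressed from the maternal copy in neurons, and the paternally expressed Snrpn, Ndn, Magel2 and Mkrn3 each carried at least 1 region in all 6 libraries, and 10 of the 39 regions of the domain were called in all 6. Of the others, 6 were called in 2 F1i and 0 F1r libraries, of which 2 lay in Magel2, 1 in Mkrn3, 1 in the long non-coding gene Snhg14 and 2 in no annotated gene, and 0 were called in 0 F1i and 2 F1r libraries. Over all autosomal regions the shares of these 2 classes were 1.52% and 1.39%. All imprinted domains together held 10 and 2 such regions. The Peg3 domain went the other way, with 0 and 2 of its 17 regions. These counts are small, and their split was not tested.

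The other members in imprinted domains were weaker. Rasgrf1, a guanine nucleotide exchange factor expressed from the paternal copy in neonatal brain, carried an F1i member (chr9:89914789-89914903, plus strand), with folds of 6.77 in the P0 male, 5.23 in the P7 male and 4.95 in the P7 female library. This member was counted with 3′UTRs and stop codons but lay near the start of the gene span (chr9:89909908-90026977), not at the end of the full-length transcript. An F1r peak lay 251 nt from it, in the main region of the same gene. Ppp1r9a, which encodes the actin-binding protein neurabin and lies in the Sgce-Peg10 domain, carried an F1i member (chr6:5161095-5161213, plus strand) with folds of 4.31, 3.62 and 3.71. In the Gnas domain an F1i member (chr2:174326988-174327182) lay on the minus strand, where no gene was annotated, with folds of 8.8, 7.67 and 4.63.
Trappc9, a component of a vesicle trafficking complex with maternal bias in brain, carried an F1r member (chr15:72800706-72800828, minus strand) with folds of 8.99 in the P0 male, 5.78 in the P7 male and 6.68 in the P7 female library. The member was counted with the 3′UTR or stop codon of an annotated transcript, and no other region of this gene was called. Airn, the paternal antisense transcript that silences Igf2r, carried an F1r member in an intron (chr17:12819511-12819641, plus strand) with folds of 5.28, 7.19 and 7.57. Igf2r itself carried a region in all 6 libraries. These calls depended on weak peaks. At a −log10 q of at least 5 in every list, 4 regions in imprinted domains met the rule, of which 3 were the members in A230057D06Rik and Trappc9, and the regions of Rasgrf1, Ppp1r9a, Airn and the Gnas domain were no longer cross-exclusive.

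Outside imprinted domains, the strongest F1r members were both in Gm42047 (ENSMUSG00000110631), a long intergenic non-coding RNA on chromosome 8, and they differed in strength between P0 and P7. The first (chr8:121836362-121837055, plus strand) had folds of 4.23 in the P0 male, 25.2 in the P7 male and 29.3 in the P7 female F1r library. The second (chr8:121838715-121839076) had folds of 4.12, 19.1 and 20.8. The P7 peaks lay at percentiles 84.8 to 88.0 of their lists and the P0 peaks at 1.59 and 1.78, so the P0 library qualified only by peaks close to the threshold. No F1i peak of the cerebellum lists lay within 46550 nt of either. In the P0 list these peaks had a −log10 q of 2.28 and 2.29, and with a minimum of 5 neither region was cross-exclusive. In cerebrum both regions were called at P0 only. The first had folds of 10.6 and 9.97 in the male and female F1r libraries. The second had folds of 5.3 and 7.7 in these libraries and was also called in the male F1i library (fold 4.61).
Neurl2, a subunit of an E3 ubiquitin ligase complex, carried an F1r member in its coding sequence (chr2:164833282-164833482, minus strand) with folds of 9.78, 10.7 and 5.85. Maml2, a coactivator of Notch signalling, carried one in its coding sequence (chr9:13298158-13298295, plus strand) with folds of 7.75, 7.19 and 9.35, and 2 other regions of the gene were called in all 6 libraries. Bcl2l1, the anti-apoptotic relative of Bcl2, carried one in an intron (chr2:152831542-152831646, minus strand) with folds of 5.16, 6.01 and 7.93. The remaining F1r members among the 10 with the highest mean percentile lay in Fam210a, Fignl2, Dnttip2 and AC098880.2. AC098880.2 is a processed pseudogene, whose reads may be shared with its parent gene, and its values are uncertain for that reason.

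The F1i members with the highest mean percentile lay in 5730409E04Rik, Zfp704, A230057D06Rik, Fam171b, Ankrd29, Acaca, Sv2c, Fzd5, Rab36 and a stretch of chromosome 8 with no gene. The uppermost, in the 3′UTR of 5730409E04Rik (chr4:126613699-126613806, plus strand), had folds of 4.16 in the P0 male, 5.02 in the P7 male and 4.05 in the P7 female F1i library, at percentiles 31.5 to 43.3. Zfp704, a zinc finger gene, carried one in its 3′UTR (chr3:9430434-9430526, minus strand) with folds of 6.39, 4.97 and 6.07. Acaca, the acetyl-CoA carboxylase of fatty acid synthesis, carried one in a 5′UTR (chr11:84129886-84130022, plus strand) with folds of 15.2, 6.38 and 8.31, the first being the highest fold of these 10 members in a single library. Sv2c, a synaptic vesicle protein, and Fzd5, a Wnt receptor, each carried one in coding sequence within 179 nt of an F1r peak. All 10 had a DRACH motif within 25 nt of the summit, as did 90.7% of all autosomal regions. Over all members the motif was found in 42 of 44 in F1i (95.5%) and 29 of 36 in F1r (80.6%).

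**Figure D2:**
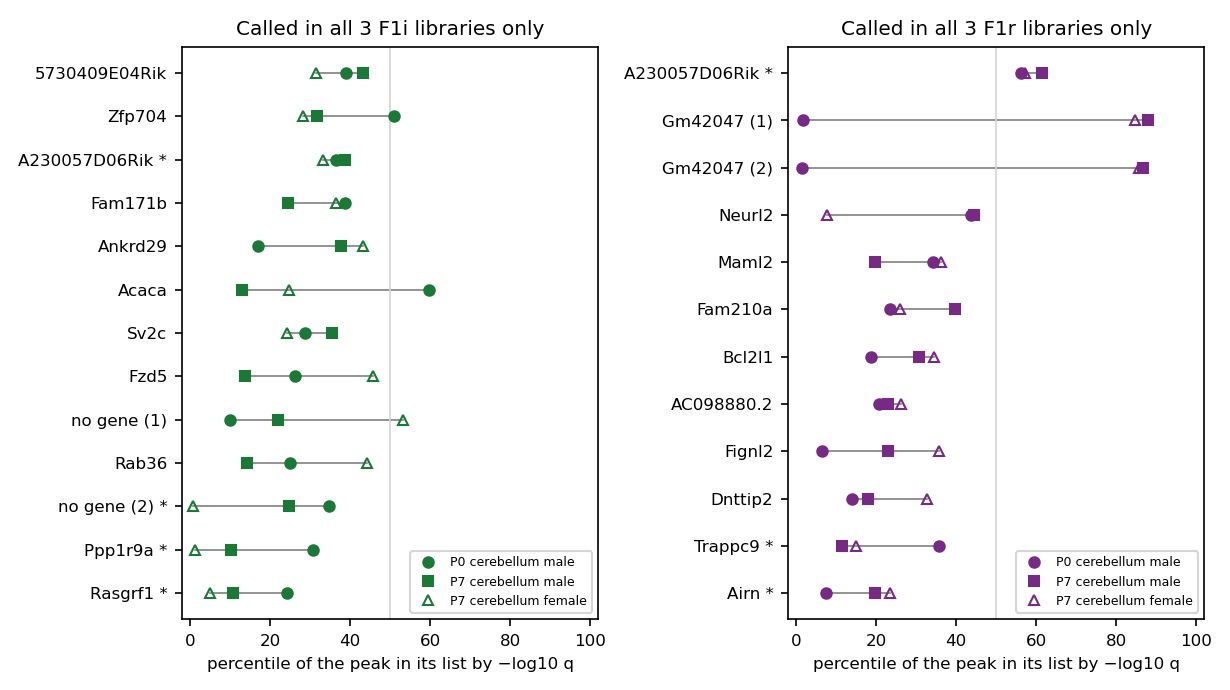
Percentile of each named cross-exclusive peak among the peaks of its own list, ranked by −log10 q (horizontal axis, 0 to 100), for the F1i regions (left) and the F1r regions (right). Symbols mark the P0 male, P7 male and P7 female libraries, the line joins the lowest and highest of the 3, an asterisk marks an imprinted domain and the grey line is the middle of a list. The F1r region of A230057D06Rik alone lies above the middle in all 3 libraries, while both Gm42047 regions fall from above 84 at P7 to below 2 at P0.

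The members of the 2 directions lay in different parts of genes. Of the F1i members, 23 of 44 (52.3%) lay in 3′UTRs or near stop codons and 5 (11.4%) in coding sequence. Of the F1r members, 4 of 36 (11.1%) lay in 3′UTRs or near stop codons and 17 (47.2%) in coding sequence. Over all autosomal regions the shares were 45.8% and 28.1%. Introns held 5 members of each direction, against 5.22% of all regions. The motif GGAC, sought on the transcript strand in the 25 nt on each side of a summit, was found in 25 of 44 F1i members (56.8%), 16 of 36 F1r members (44.4%) and 51.0% of all autosomal regions. The counts are small, and no test was made over the members.
The same tendency was sought in the full lists, where it was slight. The share of summits in coding sequence was 29.81% ± 0.944 (SD, n = 3) in F1i and 30.95% ± 0.450 in F1r, higher in F1r in 3 of 3 pairs by 0.53, 0.29 and 2.59 percentage points (mean 1.137, exact two-sided permutation by sign flips, p = 0.25). The share in 3′UTRs or near stop codons differed by -1.87, 0.01 and -1.86 points (mean -1.24, exact sign-flip p = 0.5). The share of summits with GGAC was 52.88% ± 1.19 in F1i and 52.4% ± 1.55 in F1r (exact sign-flip p = 0.25), against 17.47% and 17.34% in windows shifted by 300 nt. With 3 pairs such a test cannot go below 0.25.

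**Figure D3:**
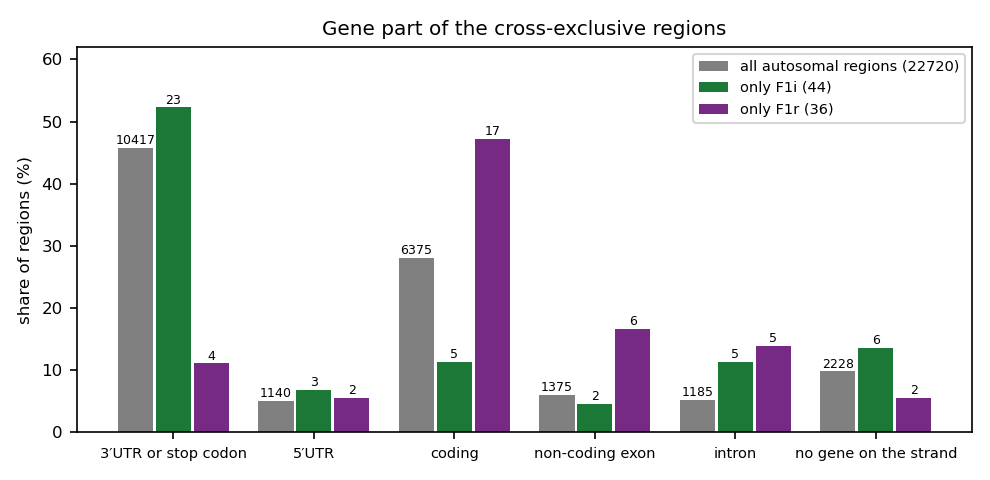
Share of regions (vertical axis, percent, from 0) in each part of a gene, for all 22720 autosomal regions, the 44 regions called in F1i only and the 36 called in F1r only, with the number of regions above each bar. 3′UTRs and stop codons hold 23 F1i and 4 F1r regions, and coding sequence holds 5 and 17.

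The 8 cerebrum libraries, which played no part in choosing the members, showed how often the direction recurred in another tissue. They form 4 pairs (P0 and P7, male and female), and cerebrum libraries were made in another batch, so that tissue and batch cannot be told apart. For the 44 F1i members, the 176 combinations of a region and a cerebrum pair comprised 17 in which the F1i library alone had a peak, 19 in which the F1r library alone had one, 93 with a peak in both and 47 with none. For the 36 F1r members, 16 of 144 combinations were in F1r alone, 6 in F1i alone, 72 in both and 50 in none. For the F1i members the direction seen in cerebellum was thus turned about as often as it was kept.
Within imprinted domains no combination was turned. The 4 F1i members there gave 7 combinations in the same direction and 0 in the opposite one, and the 3 F1r members likewise gave 7 and 0. Outside the domains the F1i members gave 10 in the same and 19 in the opposite direction, and the F1r members 9 and 6. Combinations of 1 region share its sequence and are not independent, and the difference was not tested.

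**Figure D4:**
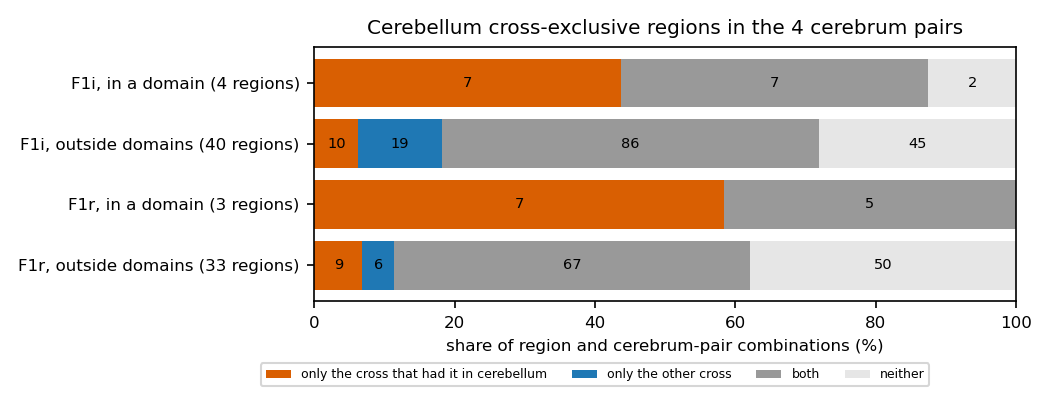
Share of the combinations of a region and a cerebrum pair (horizontal axis, percent) in which the peak was called in the cross that had it in cerebellum, in the opposite cross, in both or in neither, for members inside and outside imprinted domains. Numbers in the bars count combinations; those inside domains hold 7 and 7 in the same direction and 0 in the opposite one.

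The F1r region of A230057D06Rik was the member with the most regular pattern. It was called in all 4 cerebrum F1r libraries, with folds of 8.53 (P0 male), 10.5 (P0 female), 7.82 (P7 labelled male) and 7.73 (P7 labelled female), and in 0 cerebrum F1i libraries, so that it was called in all 7 F1r and 0 of 7 F1i libraries. The F1i region of the gene was called in all 4 cerebrum F1i libraries with folds of 22.3, 16.7, 12.5 and 12.2, and in 3 F1r libraries with folds of 5.33, 6.38 and 5.52. The F1i and F1r folds did not overlap in cerebrum either. Trappc9 was called in all 4 cerebrum F1r libraries and in 1 F1i library (P0 male, fold 4.67). Rasgrf1 and the region of the Gnas domain were each called in 3 cerebrum F1i and 0 F1r libraries. Airn and Ppp1r9a were called in all 8 cerebrum libraries, and so carried no direction there.
Other members went the opposite way. The Rab36 region (chr10:75053318-75053420, plus strand), in the 3′UTR of a small GTPase gene, had folds of 5.13, 4.9 and 8.35 in the cerebellum F1i libraries, and in cerebrum it was called in 3 F1r libraries with folds of 35.0, 37.9 and 42.3 and in 0 F1i libraries. An F1r peak lay 215 nt from it in cerebellum, and when all 14 lists were merged together the region was no longer cross-exclusive. Klf3, a transcription factor gene, also gave the opposite direction, with a peak in 3 cerebrum F1r and 0 F1i libraries. Zkscan2, a zinc finger gene, kept the F1i direction in 3 of the 4 cerebrum pairs and was called in both libraries of the other, and among the members outside imprinted domains no other kept its direction in 3 pairs or more. Their Xist and Kdm5d peaks raised a doubt about the sex labels of both P7 cerebrum F1r libraries. Xist had a peak in all 8 cerebrum libraries, labelled males included, and Kdm5d in 4, so the presence of Xist peaks does not settle these labels. With the P7 F1r libraries exchanged between pairs, a setting chosen after seeing the data, the F1i members gave 16 combinations in the same and 18 in the opposite direction, and the F1r members 19 and 9.

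Regions called in all 6 libraries were compared by the height of their strongest peak. Among 10735 such regions, limma with the matched pair as a block called 0 higher in F1r (0% of those tested) and 0 higher in F1i (0%) at an adjusted p of 0.05, and the lowest adjusted p was 0.588. A count of 0 from 3 pairs does not show that the crosses were alike at these regions. At an unadjusted p below 0.05 there were 693 regions (6.46%), 323 higher in F1r and 370 higher in F1i. The median absolute difference was 0.159 on the log2 scale of fold enrichment, against a median standard error of 0.224. The labels do not give the number of animals behind a library, and the p-values measure only the spread between these libraries.
By part of the gene, 374 of the 6129 regions tested in 3′UTRs and near stop codons (6.1%) lay below this unadjusted threshold, 143 of them higher in F1r and 231 in F1i. In coding sequence 221 of 3244 (6.81%) did, 140 higher in F1r and 81 in F1i. Both shares were close to that over all regions, none of these regions passed the adjustment, and the difference in direction between the parts was not tested. The median difference over all regions of a part was -0.02 in 3′UTRs and near stop codons and 0.037 in coding sequence, on the log2 scale.

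Within imprinted domains, 7 of the 57 regions called in all 6 libraries (12.3%) had an unadjusted p below 0.05, against 6.46% of all regions tested. Of the 57, 0 passed the adjustment. The crosses did not overlap in 7 of the 57 (12.3%), not all of them the same regions, against 8.21% of all regions tested. The counts are small, and the shares were not compared by a test. The main region of Rasgrf1 (chr9:89915038-89915393, plus strand), just downstream of its F1i member, had folds of 12.9, 15.4 and 16.4 in the P0 male, P7 male and P7 female F1i libraries, and of 6.6, 5.36 and 9.2 in the F1r libraries. The 2 crosses did not overlap, and F1r minus F1i was -1.06 on the log2 scale (SE 0.238, limma adjusted p = 0.588). The exonic region of A230057D06Rik (chr7:61927777-61928241, minus strand) had folds of 6.56, 14.7 and 24.5 in F1i and 7.4, 5.34 and 4.7 in F1r. Its difference of -1.18 (SE 0.341, limma adjusted p = 0.674) came from the P7 pairs, and at P0 the F1r library was the higher. In cerebrum the same region ran from 5.67 to 7.35 in F1i and from 4.89 to 7.71 in F1r, which overlapped.
Herc3, within whose intron the imprinted Nap1l5 lies, had folds of 11.9, 8.07 and 13.7 in F1i and 5.56, 6.16 and 6.05 in F1r (log2 difference -0.84, limma adjusted p = 0.674). This plus-strand Herc3 region (chr6:58901823-58902286) was counted with 3′UTRs and stop codons but lay upstream of the Nap1l5 region (chr6:58905901-58907064). Usp29, a paternally expressed deubiquitinase gene of the Peg3 domain, had folds of 27, 23.7 and 49.1 in F1i and 20.6, 16.5 and 22.6 in F1r in its 3′UTR (log2 difference -0.63, limma adjusted p = 0.674). Its coding region called in all 6 libraries was instead higher in F1r in all 3 pairs (log2 difference 0.475, limma adjusted p = 0.805). In the Herc3 region and the 3′UTR region of Usp29 the F1i folds lay above all F1r folds. Chrac1, a chromatin remodelling subunit with maternal bias in brain, ran the other way, with folds of 14.1, 13.5 and 14.3 in F1i and 20.7, 17.7 and 17.6 in F1r (log2 difference 0.46, limma adjusted p = 0.767). Zim1 (0.47, higher in F1r) and Zrsr1 (-0.43, higher in F1i) completed the 7 regions with an unadjusted p below 0.05. The main regions of Peg3, Peg13, Peg10, Meg3, Ndn and Magel2 were among the others.

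**Figure D5:**
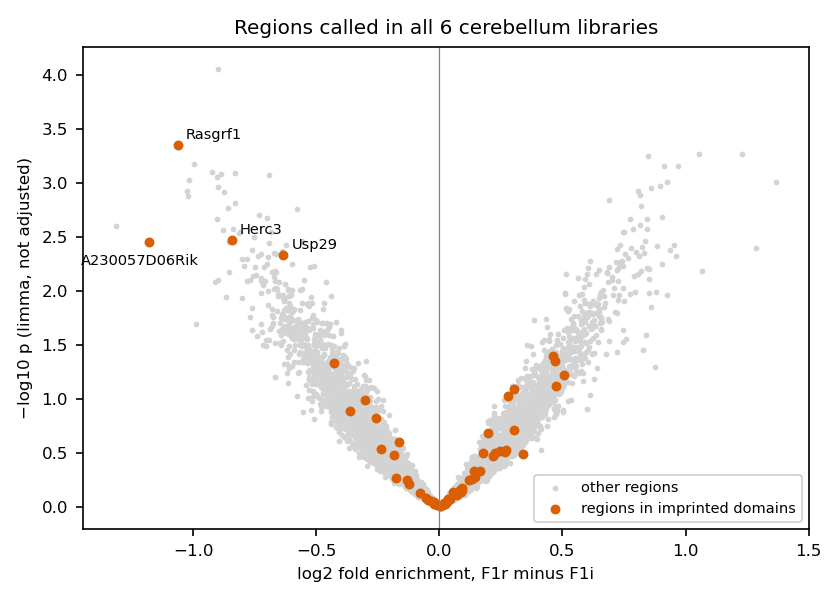
Difference in log2 fold enrichment, F1r minus F1i (horizontal axis), against −log10 of the unadjusted limma p (vertical axis) for the 10735 regions called in all 6 cerebellum libraries. Regions in imprinted domains are orange and those with the lowest p are named; Rasgrf1 lies at -1.06, and no region passed an adjusted p of 0.05.

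Across all regions the lowest p belonged to a 3′UTR region of 4930402H24Rik, with folds of 3.97, 4.5 and 5.92 in F1i and 2.1, 2.68 and 2.66 in F1r (log2 difference -0.90, SE 0.169, limma adjusted p = 0.588). Irs1, an adaptor of insulin signalling, had folds of 5.52, 6.76 and 6.21 in F1i and 10.3, 11.8 and 13.1 in F1r in its coding sequence (log2 difference 0.97, SE 0.228, limma adjusted p = 0.588). Neither gene showed overlap between the crosses. They were chosen after their values were seen, and among all 10735 regions 881 (8.21%) had crosses that did not overlap.
Whether the difference between crosses changed with tissue was tested over the 9215 regions called in all 14 libraries. The limma interaction of cross and tissue called 0 regions at an adjusted p of 0.05, with 564 at an unadjusted p below 0.05 and a lowest adjusted p of 0.607.

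The genes of the m6A machinery carried 0 cross-exclusive regions among 26 regions of writers, 5 of erasers and 12 of readers, too few to show one at the shares of 0.194% and 0.158% found over all autosomal regions. Of 8 writer genes, 7 carried a region, 6 of them in all 6 libraries, including Wtap, Virma and Zc3h13, which are accessory subunits of the methyltransferase. Both demethylase genes, Fto and Alkbh5, carried a region in all 6, as did 4 of 8 reader genes, Ythdf1, Ythdf2, Ythdf3 and Ythdc1. Of the writer regions 14 of 26 were called in all 6 libraries, and of the reader regions 9 of 12. The marker lists for granule cells, Purkinje cells, glia, oligodendrocyte lineage, choroid plexus, meninges, blood and microglia, with 0 to 18 regions each, also held 0 cross-exclusive regions and were likewise too small to read anything from this. The blood genes Hbb-bs and Hba-a1 and the meningeal genes Col1a1 and Dcn carried 0 regions in any library. Foxc1, the other gene of the meninges list, carried 3 regions, 1 of them called in all 6 libraries. Of the choroid plexus genes, Ttr carried 1 region and Kcnj13 2, called in some of the libraries, and Folr1 carried 0.
The sex chromosomes and the mitochondrial genome were counted apart, since males receive their X and all animals their mitochondria from the dam. On the X chromosome 4 of 640 regions were called in all 3 F1i libraries only, in Bhlhb9, Tceal5, Xkrx and Gm15201, and 3 in all 3 F1r libraries only, in Chst7, Klhl15 and Atp7a. Bhlhb9, which belongs to a cluster of X-linked genes expressed in brain, had the highest mean percentile of these (45.2) and a mean fold of 5.5 ± 1.45 (SD, n = 3). The Y chromosome carried 4 regions and the mitochondrial genome 1, and 0 of them were cross-exclusive.

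The libraries as a whole were little divided by cross. The Jaccard index, which is the number of shared regions divided by the number called in at least 1 of 2 libraries, averaged 0.6964 between libraries of the same cross and 0.6901 between libraries of different crosses, taken between different pairs. The difference of 0.0063 had p = 0.25 in a one-sided exact permutation test that swapped the crosses within pairs, the smallest value this design allows. Within pairs the index was 0.762 (P0 male), 0.79 (P7 male) and 0.705 (P7 female), so that libraries of the same age and sex but opposite cross were more alike than the average of either kind. The P7 female F1i library was closer to the P0 F1i library (0.707) than to the P7 male F1i library (0.684). The P7 female F1r library was closer to the P7 male F1r (0.743) and P7 male F1i (0.735) libraries than to its partner. Each P7 female library was thus nearer to a library outside its pair than to the other one of the pair. The number of peaks in F1r minus F1i was 1335, -1396 and -285 in the 3 pairs (mean -115.3, SD 1373, exact sign-flip p = 0.75), and the number of regions 1415, -654 and -366 (mean 131.7, SD 1121, exact sign-flip p = 1.0). Neither differed beyond the spread between pairs.
Without the P7 female F1i library, which stood apart, 185 regions were cross-exclusive (121 F1i and 64 F1r) and 8 lay in imprinted domains. Leaving out each of the other 5 libraries in turn gave 237 to 494. Without the whole P7 female pair the counts were 171 F1i and 234 F1r, with 9 in imprinted domains. Fewer libraries make the rule easier to meet.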

How the data were processed

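IP peak lists of 6 cerebellum and 8 cerebrum libraries were used. The inputs were not used here. Per the labels, polyadenylated RNA (the study's methods also describe ribosome-depleted RNA, without naming libraries) was fragmented, barcoded at the 3′ end, pooled and put through 2 rounds of m6A IP. According to the methods and the submitters' processing notes, reads were trimmed (cutadapt, fastp 0.21.0), aligned with HISAT2 2.1.0 to mm10 with strain differences masked, deduplicated with gencore and split by strand. Peaks were called per library with MACS2 2.1.2 without a model at an extension of 80 nt, and the control of each call is not given in the sources used here. The deposited ratio is the fold enrichment of MACS2 at the summit, and the deposited significance values are −log10 p-value and −log10 q-value. The lists hold called peaks only (lowest −log10 q 1.3 to 1.41), so a missing peak has no value. Relative depth came from whole-number pileups recovered within 0.02 from the fold and p for 100% of the peaks.

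Members and gene lists were chosen with earlier results of these data known. Named genes were all members in imprinted domains, the 10 members per direction with the highest mean percentile, and regions called by the fit (0); Klf3, Zkscan2, the X-linked members and the regions of the fit named singly were added after their values were seen. Gene parts came from GENCODE M21, which may differ from the authors' annotation, with summits up to 200 nt from a stop codon counted with the 3′UTR. Any annotated transcript could give the part, 3′UTRs and stop codons first, so a short transcript can give this label far from the end of a gene. Fold enrichment was tested as log2 values, centred per library on their median, in limma 3.58.1 (lmFit, eBayes with trend, R 4.3.3) with Benjamini-Hochberg adjustment. The same fit was run on simulated data, where it did not recover changes about as large as those of the Rasgrf1 and Irs1 regions. Pairs follow the labelled age and sex and the study's own matching. Deviations from the cross means correlated at 0.312, 0.279 and 0.2 within the 3 pairs and at most 0.006 between pairs. Sequences were read with pysam 0.24.0 from RefSeq GRCm38.p6. Coordinates are 1-based. Alternatives concerned merging, strand, overlap, −log10 q, list size, depth, exons, normalization, and leaving out libraries or pairs.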

Additional observations from a re-analysis of the deposited data

How the results depend on the processing

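The lists hold no value for a peak that was not called, and most members lay low in their lists. Merging all lists, ignoring strand, a covered share of 50%, joining peaks up to 100 nt apart, a −log10 q of at least 5, equal list sizes, pileups scaled to the shallowest library and exonic summits only gave 68 to 98 cross-exclusive regions and kept 17 to 25 of the 25 named members. With equal list sizes the larger count turned, to 43 F1i and 53 F1r. Requiring a place above the middle of all 3 lists left 1 region (0 F1i and 1 F1r), which lay in an imprinted domain. The count in imprinted domains was 4 at a −log10 q of at least 5, 3 with exonic summits only and 4 when listed genes replaced the spans. Leaving out a library or a pair made the rule easier to meet and gave 185 to 742 cross-exclusive regions, 75 to 493 in F1i, 64 to 471 in F1r and 7 to 15 in imprinted domains. The difference in number of peaks then ran from -840.5 to 525.0 and in number of regions from -510.0 to 524.5. The differences in share ran from -0.08847 to 0.1565 points for 5′UTRs, -0.08067 to 0.2152 for non-coding exons, -0.007272 to 0.1553 for introns and -0.3343 to 0.1187 for no gene. At a −log10 q of at least 5 they were -0.005714 for 5′UTRs and -0.02293 for introns, and GGAC within 50 nt gave 0.01259 points. The cause of these turns was not tested. In the limma fit, leaving out a library or a pair gave 0 to 6 regions higher in F1r and 0 to 19 higher in F1i, and the pileup over the genome background gave 1 higher in F1i. Without the replicate block the paired analysis gave the same mean differences of -115.3 peaks and 131.7 regions, and limma called 0 regions higher in F1r and 0 higher in F1i, with 366 at an unadjusted p below 0.05; it changed no other call.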

Other observations

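One region was called when IP pileup over the genome-wide background replaced the local fold enrichment in the same limma fit. It lay on the minus strand with no annotated gene (chr7:59197644-59198148), in front of the Snrpn-Ube3a span, which starts at chr7:59228750. Its pileups over the genome background were 351, 329 and 702 in the P0 male, P7 male and P7 female F1i libraries, and 105, 129 and 209 in the F1r libraries, so that the crosses did not overlap. F1r minus F1i was -1.62 on the log2 scale (SE 0.163, limma adjusted p = 0.0199). With the local background its folds were 41.6, 42.5 and 40.2 in F1i and 23.3, 26.4 and 36.2 in F1r (log2 difference -0.52, limma adjusted p = 0.725). A pileup follows the abundance of the transcript as well as its methylation, and these were not separated.

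Some genes passed the adjustment in the limma fit when a pair was left out. Without the P0 pair, 4 regions were higher in F1r and 17 in F1i, among them the exonic region of A230057D06Rik (log2 difference -1.84, limma adjusted p = 0.000379), Gbx2 (-1.08), Foxp2 (-1.11) and Grin3a (-1.02), while Kif1b (1.25) and Aak1 (1.16) were higher in F1r. Without the P7 male pair, 5 were higher in F1r, which were Pax2 (2.12), Lbx1 (2.18), Ptpn4 (1.70), Medag (1.54) and Gprin3 (1.73), and 0 in F1i. Pax2 and Lbx1 encode transcription factors of inhibitory neuron lineages, and the folds of Pax2 were 7.78, 49.2 and 13.9 in F1i and 45.7, 42.9 and 42.6 in F1r. Without the P7 female pair, Commd2 (1.35) was higher in F1r and Banf2 (-1.71) in F1i. Leaving out either P0 library alone gave 6 higher in F1r and 18 to 19 in F1i, either P7 male library 5 and 0, the P7 female F1i library 0 and 1, and the P7 female F1r library 1 and 1. With the pair as a block, a library without its partner adds nothing to the estimated difference between crosses. Leaving out 1 library thus repeats the estimates of the fit without its pair and is no separate check. The 28 regions called without a pair differ between the settings, and 0 were called with all 3 pairs.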
